A study of Mus musculus with 9 samples.

Results

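The genes described here encode the proteasome, its activators, its inhibitor and the chaperones that assemble it. They are all rows of the authors' table whose symbol starts with Psma to Psmg followed by a number, without the immunoproteasome genes Psmb8, Psmb9 and Psmb10 and without 3 pseudogenes whose symbol ends in -ps. The rule found 50 of the 45535 named rows. Of these, 16 encode the core particle, 17 the cap, 5 the activators and 1 an inhibitor, and 7 encode assembly chaperones. The last 4 were caught by name and are not subunits: Psmc3ip, a factor of meiotic recombination, Psme3ip1, a protein that binds the activator Psme3, and the pseudogenes Psmb6-ps2 and Psmb7-ps2.

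The proteasome is the main protease for proteins tagged with ubiquitin. Its core particle is a barrel of alpha rings, which gate the entry, and beta rings, which hold the cutting sites. The cap binds ubiquitin, unfolds the substrate with a ring of ATPases and feeds it into the core, while activators open the core without binding ubiquitin. In dendritic cells, which show peptides to T cells, its products supply the peptides carried on MHC class I, and interferon-inducible beta subunits can replace the constitutive cutting subunits.

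The labels and the design text give the cells as CD103+ DCs, dendritic cells that carry the integrin CD103, isolated with magnetic beads from collagenase-digested lungs of C57/BL6j mice that had received bleomycin, which scars the lung, for 7 days. The extraction label instead speaks of total lung RNA, and this conflict could not be settled from the labels. By the design text and titles, RNA was taken either directly (5 samples, called before culture) or after 18 h of culture outside the animal in RPMI medium with serum and antibiotics (4 samples, called after culture). Both groups had received bleomycin, and lungs without it are not analysed here. The labels do not say how many mice gave a sample or that samples came from separate mice, so p-values measure the spread between these samples.

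Named rows held 14.7 to 35.3 M reads in each sample, so that 1 read stood for 0.758 to 1.79 units of normalized count. Reads carry no molecular identifiers here, so errors are those between replicates. All 10 marker genes of type 1 conventional dendritic cells were read in every sample. Their summed level ran from 121489 to 149327 before and from 29633 to 34492 after culture. Most of the sum before culture was 1 gene, Wdfy4, at 66190 to 83014 before and 3764 to 5640 after culture. Of the 10 genes, 7 were lower, among them Itgae, which encodes CD103, and 3 higher (Batf3, Flt3 and Zbtb46). Markers of other cell types were read too, and their summed levels were lower after culture without overlap for 6 types. These were neutrophils (12713 to 21974 before, 813 to 1687 after, 6 of 6 genes called lower), endothelial cells (21920.2 to 31725 before, 3189 to 4150.1 after, 6 of 6) and fibroblasts (15611 to 28377 before, 2206 to 4422 after, 6 of 6). They were also epithelial cells (23132 to 37117 before, 4235 to 7582 after, 5 of 6), NK cells (1083 to 2335 before, 201 to 346 after, 4 of 5) and alveolar macrophages (16280.0 to 24196 before, 7318 to 10360.2 after, 3 of 5). T cell markers (4115 to 5135 before, 3691 to 4669 after), B cell markers (2390 to 4460 before, 2435 to 3350 after) and monocyte and interstitial macrophage markers (27501 to 45178 before, 15053 to 31993 after) overlapped in their sums, with 2 of 5, 1 of 5 and 4 of 6 genes called lower. Cd3g among the T cell markers (log2 fold change 0.37) and Ms4a1 among the B cell markers (0.61) were called higher. S100a9, a neutrophil gene, was the only one of these markers at 0 in any sample. Every level below is a mean over whatever cells a sample held, and in such bulk RNA fewer cells of a type and less RNA per cell cannot be told apart. The part of these other cells in the values below was not tested.

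Changes were tested with limma on log2(normalized count + 1) over all 18202 named genes with a mean of at least 10, with Benjamini-Hochberg adjustment over all of them and a threshold of 0.05. Across these genes, 68.8% were called in either direction, 34.2% higher and 34.6% lower after culture, and the median log2 fold change was 0.0065. Of the 50 members, 47 were tested. Psmb11 and both pseudogenes were below the minimum mean. Among the 47, 27 were called higher, 2 lower and 18 did not pass, and their median log2 fold change was 0.28. Standard errors (SE) of their log2 fold changes ran from 0.073 to 0.157, except in the 2 lowest tested members, Psmc3ip (0.2) and Psma8 (0.385). In 21 members every sample after culture was above every sample before it, and in 0 every sample was below. Among all tested genes 57.3% did not overlap, 28.7% higher and 28.6% lower. At least 2-fold rises among called genes made up 14.1% of all tested genes and were seen in 4 members, Psme2, Psme2b, Psmd10 and Psmd5.

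By role, 4 of 5 activators, 4 of 7 assembly chaperones, 10 of 17 cap genes and 7 of 15 tested core genes were called higher, against 34.2% of all tested genes. The 2 lower genes, Psmc3 and Psmd3, were both in the cap. Median log2 fold changes were 0.78 for the activators, 0.46 for the chaperones, 0.32 for the cap and 0.06 for the core. Members of 1 role differed among themselves, with SDs of their log2 fold changes of 0.38 in the cap, 0.31 in the core and 0.67 among the activators.

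**Figure D1:**
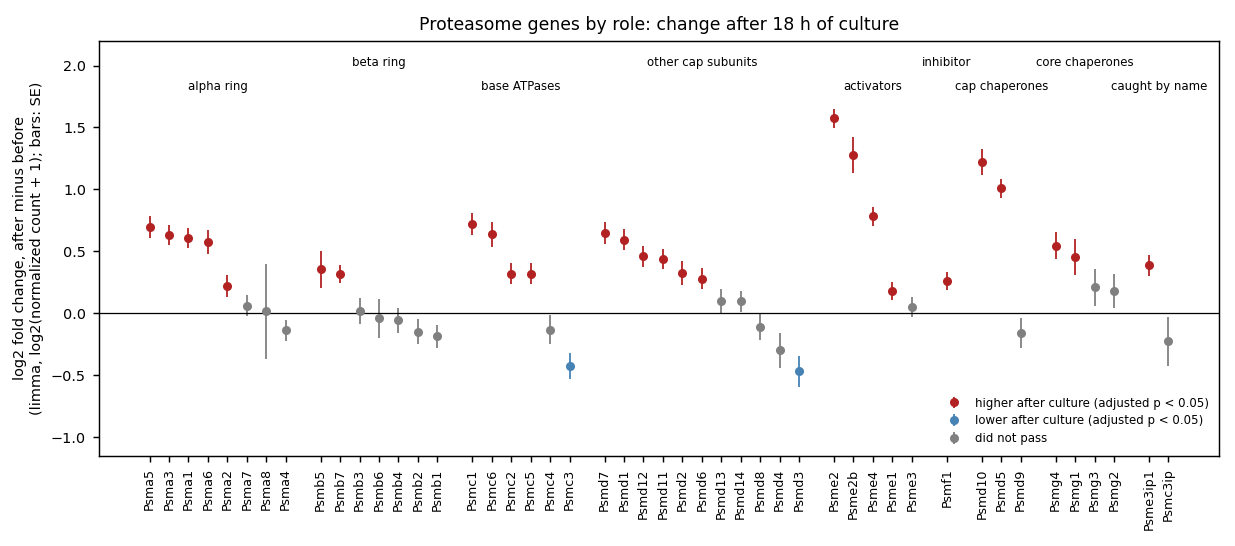
Log2 fold change after against before culture for the 47 tested members, grouped by role on the horizontal axis, with standard errors as bars and calls by colour. The activators Psme2, Psme2b and Psme4 and the cap chaperones Psmd10 and Psmd5 reach the highest values, with Psme2 at 1.57. The 2 lower calls are Psmc3 and Psmd3 in the cap.

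Summed over all members, reads per M named reads were 2683, 2631, 2747, 2643 and 2706 in before replicates 1 to 5 and 3456, 3567, 3249.8 and 3387 in after replicates 1 to 4. The groups did not overlap, and the mean went from 2682 ± 47.2 to 3415 ± 133 (SD, n = 5 and n = 4), a ratio of 1.27. The alpha ring went from 426 ± 17.5 to 573 ± 20.2, a ratio of 1.35. The beta ring stood at 501 ± 18.3 and 515 ± 46.0, a ratio of 1.03 with overlapping groups. The cap went from 1135 ± 41.6 to 1345 ± 82.7, and the activators from 484 ± 13.0 to 783 ± 27.3, a ratio of 1.62. These sums were not tested, and they are dominated by the most abundant genes.

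Promoters are shown because many members moved in the same direction and proteasome genes are known to share regulators such as Nfe2l1. RefSeq promoters (GRCm38.p6) were matched for 40 of the 50 members, with 44 start sites, and the 250 bases before each start were searched on both strands for 4 short motifs. The ETS core CCGGAAG, a core of binding sites for ETS family factors, was in 31.8% of member promoters (14 of 44) and in 6.91% of the 32851 promoters in the table. The CCAAT box (CCAAT) was in 34.1% against 33.9%, and the antioxidant response element core TGACNNNGC, part of the sites of Nfe2l1 and Nfe2l2, in 11.4% against 10.2%. A core of interferon-stimulated elements, 2 copies of GAAA with 2 bases between them, was added after the values were seen and was in 6.82% against 2.98%. No match overlapped a match of another motif. These are matches of letters and not tested binding sites. The ETS core is shown for 9 members of different roles, in capitals with 10 bases on either side and read on the strand of the motif.
Psmc1 (chr12:100110164-100110190, minus strand): atcgccaccgCCGGAAGtgcatccacc
Psmc2 (chr5:21786713-21786739, minus strand): ctcttccccaCCGGAAGtagctccgcg
Psmd2 (chr16:20651616-20651642, minus strand): gtcctccagaCCGGAAGcgccctgcgg
Psmd6 (chr14:14120974-14121000, minus strand): agagacgcgaCCGGAAGtcagactggc
Psmd12 (chr11:107479501-107479527, minus strand): gtcactcgcaCCGGAAGtcgcccgctc
Psmg1 (chr16:95991013-95991039, minus strand): tcgcggcggaCCGGAAGctcttaggtt
Psme4 (chr11:30771712-30771738, plus strand): tggccccgccCCGGAAGtgacttgagg
Psme3 (chr11:101316096-101316122, plus strand): ggcacaaggcCCGGAAGctccgacagc
Psmd4 (chr3:95042723-95042749, minus strand): tacagctgttCCGGAAGctgctgcgaa
The first 7 of these genes were called higher after culture, and Psme3 and Psmd4 did not pass.

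Longer promoter stretches are shown for 4 members. Psme2 had the largest rise of all members, Psmd10 the largest among the assembly chaperones, Psmb5 encodes a cutting subunit and Psmc6 a cap ATPase. Each reads 5′ to 3′ on the strand of its gene, ends at the last base before the annotated gene, and has every match to one of the 4 motifs in capitals.
Psme2 (chr14:55591114-55591351, minus strand): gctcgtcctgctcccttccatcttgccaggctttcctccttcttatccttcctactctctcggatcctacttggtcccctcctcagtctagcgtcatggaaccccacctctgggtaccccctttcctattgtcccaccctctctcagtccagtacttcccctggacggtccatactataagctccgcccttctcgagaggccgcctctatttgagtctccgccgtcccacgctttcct
Psmd10 (chrX:140956729-140956961, minus strand): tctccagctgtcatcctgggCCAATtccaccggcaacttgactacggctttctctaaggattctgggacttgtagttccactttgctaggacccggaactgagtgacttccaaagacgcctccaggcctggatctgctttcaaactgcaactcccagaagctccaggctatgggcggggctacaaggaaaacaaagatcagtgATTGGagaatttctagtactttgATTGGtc
Psmb5 (chr14:54618023-54618245, minus strand): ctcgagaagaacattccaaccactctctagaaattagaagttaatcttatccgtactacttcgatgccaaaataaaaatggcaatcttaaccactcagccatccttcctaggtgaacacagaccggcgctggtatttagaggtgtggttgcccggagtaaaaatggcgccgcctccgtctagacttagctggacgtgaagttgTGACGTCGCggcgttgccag
Psmc6 (chr14:45329574-45329787, plus strand): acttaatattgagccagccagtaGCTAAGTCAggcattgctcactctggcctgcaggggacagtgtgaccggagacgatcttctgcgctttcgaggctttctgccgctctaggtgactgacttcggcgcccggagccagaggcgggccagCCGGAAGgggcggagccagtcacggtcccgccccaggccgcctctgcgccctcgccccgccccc
The Psme2 stretch of 238 bases held none of the 4 motifs. Psmd10 held 3 CCAAT boxes, in capitals as CCAAT or, on the other strand, ATTGG. Psmb5 held 1 antioxidant response element core. Psmc6 held 1 such core, on the other strand, and 1 ETS core. Of the 13 genes with an ETS core, 10 were called higher, with a median log2 fold change of 0.44. Of the 26 tested genes whose matched promoters lacked it, 15 were called higher, with a median of 0.24. Psmc3 and Psmd3, the members called lower, had no matched promoter and are not in this comparison. This is a description, and the difference was not tested.

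The activators held the largest rise. Psme2 encodes the beta subunit of PA28, a ring-shaped activator that interferon induces and that binds the end of the core. Psme2 stood at 2338, 2392, 2327, 1974 and 2134 normalized counts in before replicates 1 to 5 and at 7231, 6302, 6644 and 6387 in after replicates 1 to 4. Every sample after culture was above every sample before it. The mean went from 2233 ± 174 to 6641 ± 419 (SD), a 2.97-fold ratio of group means, and limma gave a change of 1.57 on the log2 scale (SE 0.077, adjusted p = 8.94e-10). Psme1 encodes the alpha subunit of the same ring and lies close to Psme2 on chromosome 14 (Psme1 at chr14:55578123-55581529, plus strand, Psme2 at chr14:55587441-55591113, minus strand, GRCm38). Psme1 stood at 4852, 4551, 4589, 4178 and 4525 before and at 5437, 5536, 4641 and 4998 after culture. Its groups overlapped, with after replicate 3 within the range before culture. Its log2 fold change of 0.18 (SE 0.074) was close to the threshold (limma adjusted p = 0.0433), which it missed in 7 of the 9 fits that left out 1 sample and without the filter on low values (adjusted p = 0.0712, where the alternatives other than those fits spanned 1.78e-06 to 0.0824).

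Since the subunits form 1 ring together, their ratio within a sample was computed, a measure chosen after the values were seen. The ratio of Psme2 to Psme1 was 0.482, 0.526, 0.507, 0.473 and 0.472 before and 1.33, 1.14, 1.43 and 1.28 after culture. The groups did not overlap, and the log2 ratio rose by 1.39 (SE 0.070). This is a description, and no p-value is given for a pair chosen in this way. Ratios of counts between genes are not corrected for transcript length, which cancels in the change. Psme2b, a second copy of Psme2 on chromosome 11, stood at 192, 208, 150.3, 251 and 227 before and 515, 415, 546 and 506 after culture. Its groups did not overlap (limma log2 fold change 1.28, SE 0.145, adjusted p = 3.67e-06). Of the 50-base windows of the Psme2 transcript, 59.3% also occur elsewhere, most of all in Psme2b, and 69.3% of those of Psme2b occur elsewhere, most of all in Psme2. How the counting split their reads is not given in the sources used here, so the division between these 2 genes is uncertain.

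Psme4 encodes PA200, a large single-chain activator of the core. Psme4 stood at 2508, 2469, 2593, 3022 and 2538 before and 4181, 4674, 4335 and 4853 after culture, without overlap. Its mean was 1.72-fold higher after culture (limma log2 fold change 0.78, SE 0.078, adjusted p = 1.12e-06). Psme3 encodes the gamma form of PA28, a nuclear ring made of 1 kind of subunit. Psme3 stood at 2944, 2711, 3126, 2717 and 3068 before and 2706, 3284, 2834 and 3258 after culture, with overlapping groups. It did not pass the threshold (limma log2 fold change 0.05, SE 0.081, adjusted p = 0.605). The activators ranged from 0.05 to 1.57 in log2 fold change. Psme3ip1, the binding partner of Psme3 that the rule catches by name, was higher (853 ± 56.3 against 1117 ± 112, log2 fold change 0.39, limma adjusted p = 0.00132). Psmc3ip, also caught by name, did not pass (66.8 ± 12.9 and 56.7 ± 9.72, −0.23).

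**Figure D2:**
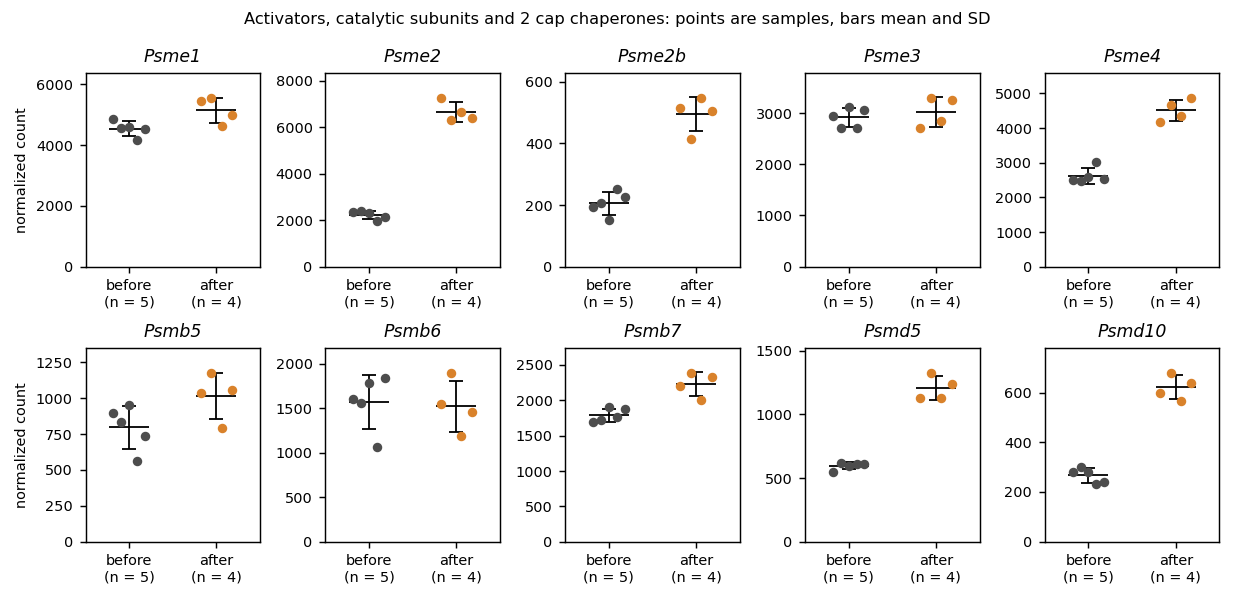
Normalized count (vertical axes, from 0) of the 5 activators, the 3 constitutive cutting subunits and 2 cap chaperones before and after culture, with 1 point per sample and lines for mean and SD. Psme2, Psme2b, Psme4, Psmb7, Psmd5 and Psmd10 have no overlap between groups, whereas Psme3 and Psmb6 share their range.

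Psmf1 encodes PI31, a protein first described as an inhibitor of the core. Psmf1 stood at 627, 600.2, 605, 581 and 641 before and 715, 708, 767 and 740.5 after culture. All samples after culture were above all samples before it, although the shift was small (limma log2 fold change 0.26, SE 0.073, adjusted p = 0.00603).

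The core is described by ring. The alpha ring had 5 of 8 genes higher (Psma1, Psma2, Psma3, Psma5 and Psma6) and 0 lower, with a median log2 fold change of 0.40. The beta ring had 2 of 7 tested genes higher (Psmb5 and Psmb7) and 0 lower, with a median of −0.04. The difference between the rings was not tested. Psma5 had the largest rise among alpha subunits and stood at 925, 864, 1029.9, 959 and 968 before and 1538, 1718, 1300.2 and 1624 after culture. Its groups did not overlap (limma log2 fold change 0.70, SE 0.09, adjusted p = 1.24e-05). Of its windows, 54.5% are shared, most of all with Gm8394. Psma1 (1753 ± 103 to 2677 ± 247), Psma3 (2136 ± 182 to 3309.5 ± 236) and Psma6 (1187 ± 70.6 to 1779 ± 273) rose by 0.57 to 0.63 on the log2 scale without overlap. Psma2 rose by less (1741 ± 118 to 2040.1 ± 254, log2 fold change 0.22, limma adjusted p = 0.0404), and it missed the threshold in 6 of the 9 fits that left out 1 sample (highest adjusted p = 0.135). Psma4 (1295 ± 105 and 1179 ± 106) and Psma7 (1925 ± 129.8 and 2012 ± 212) did not pass, with log2 fold changes of −0.14 and 0.06. Corrected for GC content and transcript length, Psma3 no longer passed (0.12, limma adjusted p = 0.135), Psma1 (0.18) and Psma6 (0.30) stayed higher, Psma7 was called higher (0.44, limma adjusted p = 4.49e-05), and Psma2 and Psma4 were called lower, with a median of 0.15 over the alpha ring. Windows shared with other genes cover 25.6% of Psma4 and a smaller share of Psma3, so their values are also uncertain.

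Psma8 replaces Psma7 in the proteasome of male germ cells. Its normalized counts were 20.9, 24.7, 11.2, 20.9 and 14.3 before and 29.1, 11.4, 10.0 and 30.4 after culture, far below the other alpha subunits, with overlapping groups (log2 fold change 0.02, limma adjusted p = 0.975). Psmb11 is the cutting subunit of thymic epithelial cells and a neighbour of Psmb5 on chromosome 14. Psmb11 stood at 7.62, 4.95, 4.49, 9.21 and 5.37 before and 5.30, 0, 0.910 and 0 after culture, which is 3 to 11 reads per sample before and 6, 0, 1 and 0 after. A value of 3 reads is the floor taken here, so no fold is given. Psmb6-ps2 had 0 reads in all 9 samples and Psmb7-ps2 0 to 5 reads.

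Of the 3 constitutive cutting subunits, Psmb5 and Psmb7 were called higher. Psmb5 carries the chymotrypsin-like site and stood at 897, 833, 954, 566 and 739 before and 1037, 1174, 793 and 1058 after culture. Its groups overlapped, with after replicate 3 below 3 of the samples before culture. The log2 fold change was 0.36 (SE 0.149, limma adjusted p = 0.0470), and it missed the threshold in 6 of the 9 fits that left out 1 sample (highest adjusted p = 0.127). Corrected for GC content and transcript length, Psmb5 stayed higher with a larger change (0.66, limma adjusted p = 7.58e-04). Of its windows, 57.1% are shared, most of all with Gm3375. Psmb6 carries the caspase-like site and stood at 1607, 1562, 1779, 1067 and 1840.1 before and 1547, 1892, 1190.1 and 1462 after culture. The groups covered the same range, and it did not pass (limma log2 fold change −0.04, SE 0.157, adjusted p = 0.837). Psmb7 carries the trypsin-like site and stood at 1692, 1721, 1899, 1769 and 1871 before and 2206, 2381, 1999.9 and 2335 after culture. Its groups did not overlap (limma log2 fold change 0.32, SE 0.074, adjusted p = 0.00184). After a correction for GC content and transcript length its change was −0.20 and did not pass (limma adjusted p = 0.0558, where the alternatives spanned 7.07e-05 to 0.0558). Exons of Psmb7 overlap Nek6 on the opposite strand over 11.8% of the exon bases of all its annotated transcripts. Strandedness is not given in the sources used here. The other beta subunits, Psmb1, Psmb2, Psmb3 and Psmb4, had log2 fold changes from −0.19 to 0.02 and did not pass.

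Each cutting subunit has an interferon-inducible counterpart in the immunoproteasome. Of these, Psmb8 (2752 ± 270.0 against 3435 ± 235, log2 fold change 0.32, limma adjusted p = 0.00419) and Psmb10 (1195 ± 116 against 1797 ± 171, 0.59, limma adjusted p = 7.52e-05) were higher after culture. Psmb9 did not pass in the main fit (2151 ± 152 against 2217 ± 164, 0.04, limma adjusted p = 0.633). Under the alternatives other than leaving out 1 sample its estimates ran from 0.034 to 0.32. Its adjusted p (limma, edgeR or DESeq2) was there as low as 9.82e-04, so its call depended on the setting. The ratio of Psmb5 to Psmb8 ran from 0.245 to 0.334 before and from 0.238 to 0.335 after culture. Its log2 change was 0.03 (SE 0.127, exact two-sided permutation test, p = 0.825, adjusted over the 3 pairs 0.825). The ratio of Psmb6 to Psmb9 ran from 0.532 to 0.905 before and from 0.555 to 0.856 after culture (log2 change −0.08, SE 0.189, exact permutation p = 0.651, adjusted 0.825). The ratio of Psmb7 to Psmb10 was 1.38, 1.37, 1.48, 1.78 and 1.54 before and 1.16, 1.21, 1.23 and 1.39 after culture. After replicate 4 lay within the range before culture, and the log2 change of −0.27 (SE 0.094) had an exact permutation p of 0.0476, which adjusted over the 3 pairs was 0.143. None of the 3 ratios therefore passed.

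**Figure D3:**
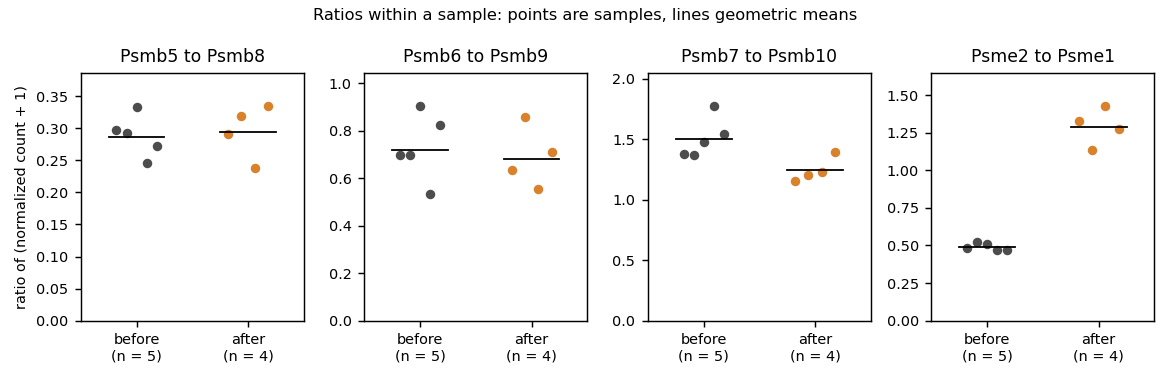
Ratio of (normalized count + 1) within each sample for the 3 pairs of constitutive and immunoproteasome cutting subunits and for Psme2 to Psme1, with points as samples and lines as geometric means. The 3 catalytic ratios overlap between groups, and the ratio of Psme2 to Psme1 goes from a geometric mean of 0.491 to 1.29.

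In the cap, the ring of 6 ATPases had 4 genes higher and 1 lower. Psmc1 had the largest rise and stood at 1402, 1339, 1525, 1229 and 1446 before and 2275, 2502, 1947 and 2445 after culture. Its groups did not overlap (limma log2 fold change 0.72, SE 0.09, adjusted p = 9.25e-06), and 17.6% of its windows are shared, most of all with Gm9575. Psmc6 (1006 ± 129 to 1556 ± 114, log2 fold change 0.64), Psmc2 (1381 ± 92.9 to 1726 ± 182, 0.32) and Psmc5 (1225 ± 73.2 to 1533 ± 162, 0.32) were also higher without overlap. Psmc4 did not pass (1234 ± 129 and 1136 ± 212, −0.13). Psmc3, the only ATPase gene called lower, stood at 1854, 1843, 2005, 1504 and 1871 before and 1374, 1603, 1124 and 1319 after culture. Before replicate 4, the lowest of its group, lay within the range after culture. The log2 fold change was −0.43 (SE 0.107, limma adjusted p = 0.00294). Exons of Psmc3 overlap Slc39a13 on the opposite strand over 8.25% of the exon bases of all its annotated transcripts.

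Among the other 11 cap subunits, 6 were higher and 1 lower. Psmd7, the partner of the deubiquitinase Psmd14 in the lid, had the largest rise and stood at 849, 952, 1037, 811 and 866 before and 1446, 1535, 1274 and 1412 after culture. Its groups did not overlap (limma log2 fold change 0.65, SE 0.089, adjusted p = 2.11e-05). Psmd14 itself did not pass (1111 ± 99.9 and 1187 ± 80.8, 0.10). The scaffold subunits Psmd1 (2395 ± 134 to 3631 ± 403, 0.60) and Psmd2 (4195 ± 326 to 5293 ± 763, 0.33) were higher, as were Psmd12 (0.46), Psmd11 (0.44) and Psmd6 (0.28). Shared windows cover 26.4% of Psmd2 and 14.0% of Psmd11. Psmd3, a lid subunit, was lower and stood at 2157, 2109, 2282, 1486 and 2178 before and 1453, 1709.6, 1249 and 1470.3 after culture. Before replicate 4 again lay within the range after culture, and the other 4 samples before culture were above all after culture. The log2 fold change of Psmd3 was −0.47 (SE 0.125, limma adjusted p = 0.00457).

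The ubiquitin receptor Psmd4 did not pass with all samples (1670.1, 1609.9, 1725, 1020.3 and 1666 before and 1338, 1306, 1095 and 1189 after culture, log2 fold change −0.30, limma adjusted p = 0.0708). Without before replicate 4 it was −0.44 and passed (limma adjusted p = 2.27e-04, and at most 0.162 in the 9 fits that left out 1 sample). It also passed with edgeR (adjusted p = 0.0423) and DESeq2 (adjusted p = 0.0404) on the recovered reads, where the alternatives spanned 2.51e-04 to 0.419. Adrm1, another ubiquitin receptor of the cap, is named outside the series of Psmd symbols. Adrm1 was lower (1714 ± 198 against 1248 ± 164, log2 fold change −0.46, limma adjusted p = 0.00195), and 78.0% of its windows occur in other genes, mostly in Gm9774. Corrected for GC content and transcript length, Psmc3 (−0.14), Psmd3 (−0.12) and Adrm1 (−0.06) no longer passed (limma adjusted p of 0.156, 0.249 and 0.494). Psmd6 also lost its call under this correction (0.06, limma adjusted p = 0.566). Psmd8 (−0.11) and Psmd13 (0.10) did not pass, and Psmd13 was called higher once corrected (0.31, limma adjusted p = 0.00462).

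Assembly chaperones hold subunits until a particle is built and then leave it. Psmd10, also called gankyrin, binds the ATPase Psmc4 and stood at 279, 301, 280.5, 234 and 239.9 before and 599.8, 677, 568 and 640.1 after culture. Every sample after culture was above every sample before it. The mean was 2.33-fold higher (limma log2 fold change 1.22, SE 0.104, adjusted p = 2.22e-07). Psmd5, a chaperone that binds the ATPase Psmc2, went from 598 ± 28.8 to 1205 ± 94.3 without overlap (limma log2 fold change 1.01, SE 0.079, adjusted p = 9.69e-08). Psmd9, the third chaperone of the cap, did not pass (359 ± 29.1 against 324 ± 57.9, −0.16). On the core side, Psmg4 had the largest rise and stood at 242, 246, 280.5, 208 and 281 before and 359, 370.0, 343 and 392 after culture, without overlap (limma log2 fold change 0.55, SE 0.111, adjusted p = 6.47e-04). Psmg1 was also higher (0.46, limma adjusted p = 0.0131), while its partner Psmg2 (0.18) and Psmg3, the partner of Psmg4, (0.21) did not pass. Pomp, the chaperone that completes the core and is not a member by symbol, was higher (2396 ± 50.9 against 2839 ± 166, 0.24, limma adjusted p = 0.00431).

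Per kilobase of the longest annotated coding transcript (GENCODE M21, GRCm38), levels of subunits that sit in 1 particle in equal number were not equal. Among 14 core genes, without Psma8 and Psmb11, the highest mean before culture was 4.67 times the lowest (Psmb3 at 2795 ± 213 and Psma2 at 598 ± 40.4 normalized counts per kilobase), and 4.07 times after culture. Among the 17 cap genes this ratio was 4.26 before culture, from Psmd12 to Psmd8, and 2.89 after culture, from Psmd12 to Psmd2. Psme1 had the highest level per kilobase of the members before culture (4082 ± 216), and Psme2 the highest after it (6903 ± 436, against 2321 ± 181 before). These values depend on which transcript is expressed and on shared windows, which cover 55.8% of Psmb3.

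The samples of 1 group were not equal across members. Before replicate 4 was the lowest of its group in 30 of the 47 tested members, where its share over all tested genes was 30.4%. After replicate 3 was the lowest in 36 of the 47, where its share was 33.7%. Their median log2 deviations from their group were −0.12 and −0.19 over members, against 0.011 and −8.2e-06 over all tested genes. After replicate 2 was the highest of its group in 35 of the 47 members and before replicate 3 in 20. Shares of all tested genes were not computed for the highest sample. The median deviations of these 2 samples were 0.15 and 0.087 over members, against 0.023 and 0.020 over all tested genes. In 3 of the 4 samples after culture the number in the library name differs from that in the title. By library name before replicate 4 and after replicate 3 are both number 4, and before replicate 3 and after replicate 2 both number 3. Over all tested genes their deviations from the group means correlated at 0.35 and 0.25. Leaving out before replicate 4 and after replicate 3 together, an alternative chosen after seeing the data, gave 27 members higher and 3 lower. Leaving out only before replicate 4 gave 24 higher and 4 lower, and the core then had 5 higher and 1 lower. Leaving out only after replicate 3 moved the core median from 0.06 to 0.28.

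**Figure D4:**
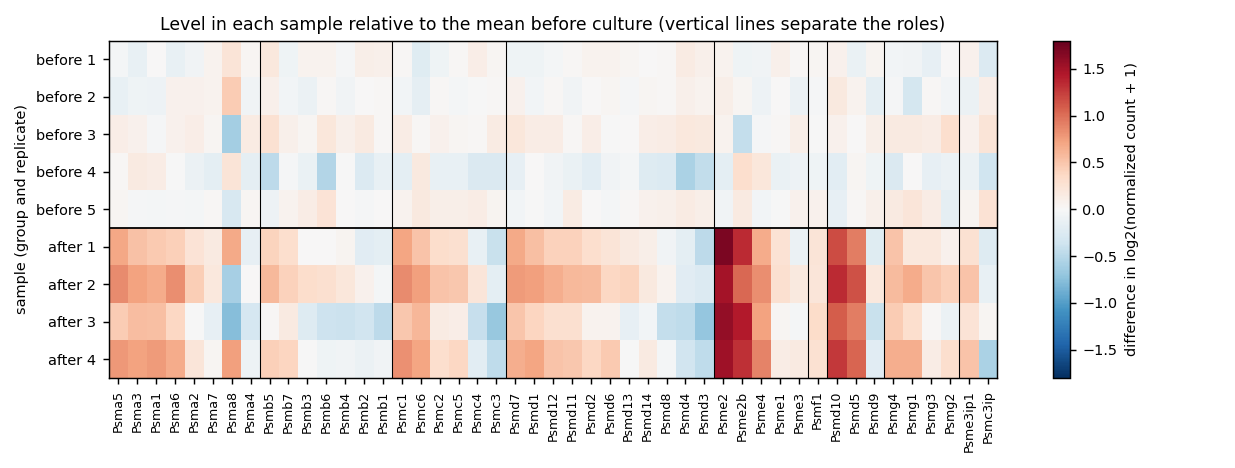
Level of the 47 tested members (columns, by role between the vertical lines) in each of the 9 samples (rows), as the difference in log2(normalized count + 1) from the mean before culture. Before replicate 4 and after replicate 3 run lower than the other samples of their group in 30 and 36 members, and Psme2, Psme2b, Psmd10 and Psmd5 are the most raised columns after culture.

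Changes of the members went with the GC content of their transcripts. Across the 47 members the log2 fold change and GC content had a Pearson r of −0.38 and a Spearman rho of −0.43, and across the 17793 tested genes with an annotated transcript −0.26 and −0.32. These are descriptions across genes, which share libraries and are not independent. For the members, GC content is that of the longest coding transcript. For all tested genes it is that of the longest transcript of any type. The 27 higher members had a median GC content of 48.7%, the 18 that did not pass 51.8%, and Psmc3 and Psmd3 had 55.1% and 58.3%. When a smooth trend over GC content and transcript length was removed from each sample, 22 members were higher and 4 lower, 20 of the 22 being higher in both fits. This correction also used the longest transcript of any type, which can differ from the coding transcript given for the members. The median over members became 0.12, over the cap 0.06 and over the activators 0.57. Psme2 (1.69), Psme2b (1.17), Psmd5 (0.80), Psmd10 (0.72) and Psme4 (0.57) stayed higher, whereas Psmc6 (0.64 to −0.07), Psmd11 (0.44 to −0.11) and Psmc2 (0.32 to −0.15) were no longer called. Psma2 changed from a higher to a lower call (−0.36, limma adjusted p = 0.0174). The part of GC content in the changes beyond this correction was not tested.

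**Figure D5:**
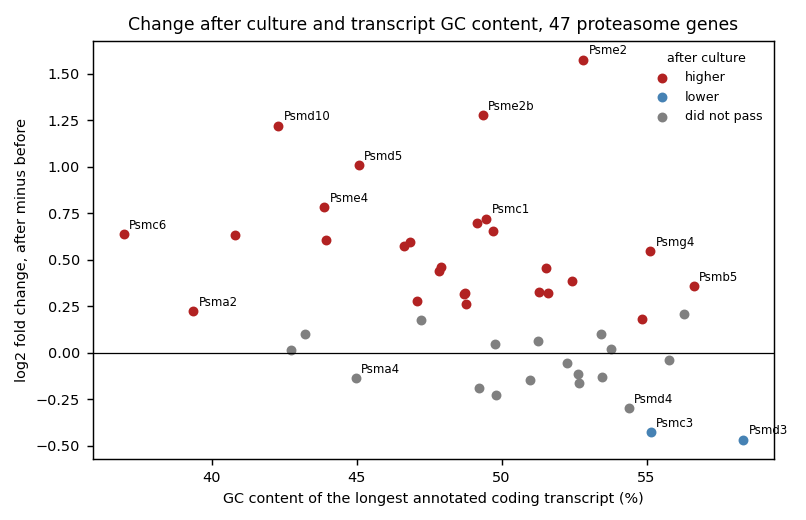
Log2 fold change after against before culture (vertical axis) and GC content of the longest annotated coding transcript in percent (horizontal axis) for the 47 tested members, coloured by call. Members of low GC content lie mostly above 0 and the 2 lower calls, Psmc3 and Psmd3, lie at 55.1% and 58.3%, with a Pearson r of −0.38.

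A list of 41 symbols of the same pathway outside the rule was read beside the members. It matched 36 genes, of which 35 were tested. Of these, 18 were higher, 8 lower and 9 did not pass, with a median log2 fold change of 0.20. Over all tested genes, 34.2% were called higher, 34.6% lower and 68.8% in either direction. The 4 largest rises were in Ube3a, Ecpas, Nfe2l1 and Usp14. Ube3a, a ubiquitin ligase that can bind the cap, went from 1497 ± 126.3 to 2945 ± 235 (log2 fold change 0.98, limma adjusted p = 1.79e-07). Its lowest estimate under any alternative was 0.45. Genes on the opposite strand, among them Snhg14, overlap 27.3% of the exon bases of Ube3a, so with strandedness not given its value is uncertain. Ecpas, which holds cap and core together, went from 2815 ± 155 to 5179 ± 369 (0.88). Nfe2l1, a transcription factor that raises proteasome genes when the proteasome is inhibited, stood at 4027, 4009, 4176, 3659 and 3922 before and 7183, 7331, 6670.3 and 7076 after culture. Its groups did not overlap (0.84, limma adjusted p = 9.64e-08). Usp14, a deubiquitinase that docks on the cap, went from 1173 ± 96.5 to 2019 ± 210.4 (0.78, and 0.27 at the lowest under any alternative). Thoc1 on the opposite strand overlaps 26.0% of the exon bases of Usp14, so this value is also uncertain. The other cap deubiquitinase on the list, Uchl5, did not pass in the main fit (−0.11, SE 0.11). Under the alternatives other than leaving out 1 sample its estimates ran from −0.74 to −0.0034. Its adjusted p (limma, edgeR or DESeq2) was there as low as 7.22e-05, so its call depended on the setting.

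Among the genes called lower were Rps27a and Nfe2l2. Rps27a, which encodes ubiquitin joined to a ribosomal protein, went from 2975 ± 241 to 1507 ± 193 without overlap (−0.99, limma adjusted p = 7.38e-07). Of its windows, 57.0% are shared, most of all with Gm8430. Nfe2l2, a transcription factor of the oxidative stress response, went from 10977 ± 491 to 6652 ± 1092 (−0.74, limma adjusted p = 2.61e-05). Vcp (0.60, SE 0.077) and its cofactors Nploc4 (0.54, SE 0.074), Faf2 (0.64, SE 0.068) and Ufd1 (0.23, SE 0.081), which pull ubiquitin-tagged proteins out of complexes and deliver them to the proteasome, were all higher, although Ufd1 no longer passed once corrected for GC content and transcript length (0.05, limma adjusted p = 0.590) or without before replicate 2 or before replicate 3 (highest limma adjusted p = 0.0613). Windows shared with other genes, most of all with Vcp-rs, cover 60.1% of Vcp, so its value is uncertain. The shuttle receptors, which carry such proteins to the cap, were divided, with 3 of 7 higher and 1, Bag6 (−0.72, SE 0.087), lower. All tested genes had 34.2% higher and 34.6% lower. Of the 3 higher shuttle receptors, Ubqln1 (0.20, limma adjusted p = 0.0458) missed the threshold in 7 of the 9 fits that left out 1 sample.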

How the data were processed

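Total RNA of 9 samples, 5 before and 4 after culture, was sequenced. Groups follow the treatment labels, and table columns were matched by library name. The table deposited by the authors gives a signal, the read count of each gene divided by 1 factor for its sample. The submitters' processing notes name the build GRCm38 and DESeq2, and the aligner, counter, annotation and strandedness are not given in the sources used here. All values (100%) were whole multiples, within 1e-06 reads, of 1 step per sample, so whole reads were recovered by division. Of 49317 rows, 3782 carry no symbol. They held 6.43 to 10.9% of reads before and 3.87 to 5.46% after culture and were left out.

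From these values log2(value + 1) was fitted with limma 3.58.1 under R 4.3.3 (1 term for the group, mean-variance trend, two-sided) over the 18202 named genes with a mean of at least 10. P-values were adjusted by the Benjamini-Hochberg method, with a threshold of 0.05. Ratios within samples were compared by an exact permutation test. Folds of single genes are ratios of group means. Fold changes on the log2(value + 1) scale understate low genes.

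The members, the roles, the pathway list and the marker lists were chosen with earlier results of these data known. Values in each sample are given for cutting subunits, activators, the inhibitor, tissue-specific subunits, and the largest rise and fall past the threshold in every other role. They are also given for members called against their role's majority and for the 4 largest rises and falls and the immunoproteasome genes of the pathway list, the latter mostly as means. Some of these falls are not reported here. Other genes named, such as Psmd4 and Psmd5, were chosen after their values were seen.

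Shared windows, GC content and length came from GENCODE M21 for 97.8% of tested genes and all 47 tested members. Windows, levels per kilobase and the GC content given for members used the longest coding transcript. The correction and the values over all genes used the longest transcript of any type. In simulated counts with 200 genes changed 2-fold, limma recovered 199 at a dispersion of 0.02 (18055 genes) and 20 at 0.1 (17995 genes). edgeR 4.0.16 recovered 200 and 24 (18202 genes). False calls made up 4.33% and 0% of the limma calls and 5.21% and 7.69% of the edgeR calls. Far fewer genes changed in these simulations than the 68.8% called here, so they do not give the share of changes recovered in these data. Alternatives were pseudocounts of 0.5 and 8, no filter, a minimum mean of 50, upper quartile, TMM and quantile scaling, edgeR and DESeq2 1.42.0 on the recovered reads, replicate blocks, a correction for GC content and length with splines of 5 degrees of freedom, and leaving out each replicate. Summaries and figures used pandas 2.3.3, SciPy 1.17.1, NumPy 2.4.6 and matplotlib 3.10.9 in Python 3.11.15.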

Additional observations from a re-analysis of the deposited data

Results flagged for a closer look

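Each group of each tested member was checked for 1 sample far from the others by Dixon's criterion, in 94 groups. In 4 of them before replicate 4 stood apart, where chance gives about 1 in 20 groups. Psma7 was 1698 in that sample and 1942 to 2015 in the other 4 samples before culture. Psmd3 was 1486 against 2109 to 2282, and Psmd4 was 1020.3 against 1609.9 to 1725. Psme4 went the other way, at 3022 against 2469 to 2593. No sample after culture stood apart by this criterion.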

How the results depend on the processing

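Among the 27 members called higher, 18 kept that call under every alternative and 24 under every alternative other than the correction for GC content and length. Psmc3 and Psmd3 kept their lower call under every alternative except that correction. The main fit did not pair samples. Same-numbered samples deviated together with correlations from −0.21 to 0.08 by title number and from 0.04 to 0.35 by library number. By library number, the samples before culture numbered 1, 3 and 4 correlated most with the cultured sample of their own number, and number 5 did not. By title number this held for 1 and 2 and not for 3 and 4. Whether library numbers mark pairs was therefore not settled. With the replicate block on the title number 3 members changed their call and the beta ring median was 0.0239. With the replicate block on the library number 2 did (Psmb1 and Psmd4, both now lower), so that 4 members were lower and 1 of them was in the core.

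The correction for GC content and length changed the call of 14 members. It gave 4 lower members, 3 in the core (Psma2, Psma4 and Psmb1) and 1 in the cap (Psmd14), with medians of 0.12 over all members, 0.0025 in the core, 0.15 in the alpha ring, 0.058 in the cap, 0.57 in the activators and −0.0295 in the ATPases. Among genes called with or without it, the sign reversed for Ngly1 (−0.35), Psma2 (−0.36), Psmb7 (−0.20), Psmc2 (−0.15), Psmc6 (−0.0723), Psmd11 (−0.11), Psmd14 (−0.34), Txnl1 (−0.16) and Ubqln4 (0.26). The cause was not tested.

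Upper quartile scaling moved the median of all genes to 0.12, and the medians to 0.89 for activators, 0.30 for the pathway list and 0.0692 for the beta ring. Quantile normalization moved the median of all genes to 0.10 and the chaperone median to 0.63, with 1 core gene, Psmb1, lower. No filter on low values gave 1 lower core gene, Psmb11. Leaving out before replicate 4 and after replicate 3 together, chosen after seeing the data, gave medians of 0.27 in the core, 0.85 in the activators and 0.0572 in the beta ring. Leaving out 1 sample at a time gave 2 to 4 lower members, 0 to 1 lower in the core and in the chaperones, a core median of 0.0274 to 0.28 and a beta ring median of −0.14 to 0.0725. Depth limits Psmb11 and the pseudogenes, and also Psma8, with 8 to 40 reads per sample.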
